A study of Mus musculus with 64 samples.

Results

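The 10 genes described here are T cell genes that include Cd8a, and they were taken by symbol out of 36332 distinct gene IDs in the deposited table. They are Cd8a and Cd8b1 (the alpha and beta chains of the CD8 co-receptor), Cd4 (the CD4 co-receptor), Cd3d, Cd3e and Cd3g (the signalling chains that assemble with the T cell receptor), Gzma and Gzmk (granule proteases), Ccl5 (a chemokine) and Nkg7 (a membrane protein of cytotoxic granules). The set was chosen by the level of Cd8a, which had been seen higher in knockout liver at 5 months, so that comparison is described here for all 10 genes with no test, and so is Cd8a in liver with age. The study sequenced RNA from 3 tissues (omental fat, liver, skeletal muscle) after removal of Myc, the gene of the transcription factor MYC, from the whole body, in 64 libraries that form 12 groups. Knockout mice (KO, labelled MycKO) combined the allele Gt(ROSA)26Sortm1(cre/ERT2)Tyj, which drives a Cre recombinase that tamoxifen switches on, with the allele Myctm2Fwa, which that Cre can cut out, from parent lines on B6.129 and B6.129S6 backgrounds. Wild-type mice (WT) were C57/B6, so the groups differed in strain background as well as in Myc. Every group, WT included, was given tamoxifen as 5 daily injections (75 mg/kg in corn oil) once weaned mice weighed 15 g or more. The mice were 5 or 20 months old. At 5 months there were 6 KO and 6 WT libraries for each tissue, except for 4 KO libraries of muscle, and at 20 months there were 5 for each genotype and tissue. The labels used here give no sex.

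T cells recognise peptides held on MHC molecules through a receptor whose signal passes through the CD3 chains. CD8 binds MHC class I and marks mainly cytotoxic T cells, and CD4 binds MHC class II and marks mainly helper and regulatory T cells. The CD8 co-receptor is either a pair of an alpha with a beta chain, found on conventional cytotoxic T cells, or a pair of alpha chains, found also on some dendritic cells and on some lymphocytes of tissues such as the gut and liver. Granzymes are released from cytotoxic granules by CD8 T cells and natural killer cells, and CCL5 attracts T cells and other leukocytes. CD4 is also found on some macrophages and dendritic cells, and NKG7, granzyme A and CCL5 are also made by natural killer cells. Liver and visceral fat both hold resident lymphocytes, while skeletal muscle at rest holds few. In bulk tissue, a gene carried by few cells can differ because fewer cells of a type were present or because each held less RNA, and these cannot be told apart.

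In the RefSeq annotation of GRCm38.p6, Cd8b1 (chr6:71322788-71337492) and Cd8a (chr6:71373427-71379171) are neighbours that start 0.0506 Mb apart. Cd4 is also on chromosome 6 (chr6:124864693-124888247), and so is the engineered Gt(ROSA)26Sor locus, which starts 41.7 Mb from Cd8a and 11.8 Mb from Cd4. Cd3g (chr9:44969572-44980431), Cd3d (chr9:44981769-44987052) and Cd3e (chr9:44998735-45009663) lie side by side on chromosome 9. Gzma (chr13:113093824-113100981) and Gzmk (chr13:113171630-113180965) are close to each other on chromosome 13. Ccl5 is at chr11:83525778-83530518 and Nkg7 at chr7:43437138-43438246. RefSeq promoter sequences of GRCm38.p6 were matched for 7 of the 10 genes, and Cd8b1, Cd4 and Ccl5 were not among them. The 250 bases upstream of the start are shown for 4 of them, 1 for each role, because these genes moved together in adipose tissue or were described together in liver. Capitals mark TGTGGT, the core letters bound by RUNX factors, and AGGAAG, letters bound by ETS factors, on either strand, so that TGTGGT can also stand as ACCACA. Each is written 5′ to 3′ on the strand of its gene.
Cd8a, chr6:71373177-71373426, plus strand: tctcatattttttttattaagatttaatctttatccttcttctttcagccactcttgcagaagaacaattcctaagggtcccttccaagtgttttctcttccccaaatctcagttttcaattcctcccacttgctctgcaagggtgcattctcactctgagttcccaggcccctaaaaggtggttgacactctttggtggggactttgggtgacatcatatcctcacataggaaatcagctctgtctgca
Cd3g, chr9:44980432-44980681, minus strand: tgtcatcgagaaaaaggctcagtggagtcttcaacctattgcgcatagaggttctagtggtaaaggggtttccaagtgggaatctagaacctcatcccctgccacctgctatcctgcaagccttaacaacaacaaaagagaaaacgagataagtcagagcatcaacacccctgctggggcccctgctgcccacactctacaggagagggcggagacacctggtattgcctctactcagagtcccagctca
Gzma, chr13:113100982-113101231, minus strand: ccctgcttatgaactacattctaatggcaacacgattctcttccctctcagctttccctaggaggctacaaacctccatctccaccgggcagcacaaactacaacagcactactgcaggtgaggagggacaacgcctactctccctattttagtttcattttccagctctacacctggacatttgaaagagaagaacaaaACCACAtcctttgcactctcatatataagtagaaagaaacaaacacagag
Nkg7, chr7:43436888-43437137, plus strand: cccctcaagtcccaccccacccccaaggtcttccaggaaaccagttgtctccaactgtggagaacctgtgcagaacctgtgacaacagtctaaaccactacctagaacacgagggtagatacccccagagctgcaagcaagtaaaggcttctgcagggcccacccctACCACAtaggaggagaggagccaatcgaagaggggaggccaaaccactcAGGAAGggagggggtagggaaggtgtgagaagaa
TGTGGT was present in 2 of the 7 promoters (Gzma and Nkg7) and in 14.1% of 32851 promoters of the same length. AGGAAG was present in 3 of 7 (Cd3d, Cd3e and Nkg7) and in 29.5% of all promoters. CANNTG, the E box pattern that contains the letters bound by MYC among others, was present in 7 of 7 and in 66.2% of all promoters. TATAAA was present in 0 of 7 and in 12.4% of all promoters. Of the 4 sequences printed, those of Cd8a and Cd3g hold neither capital pattern. Both strands were searched for each pattern, and a match is a description of the letters only.

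The values are the deposited CPM, reads per gene multiplied by 1 factor per library, and 1 read was worth 0.020 to 0.088 CPM. Libraries held 15.4 to 28.5 M reads on genes, and 28726 IDs had a read in any library. The columns of adipose libraries summed to 0.529 to 0.753 M, against 1.18 M or more in liver and 1.08 M or more in muscle, so levels between tissues are given as recovered reads per 1 M reads on genes. Mean Myc levels were lower in KO than in WT in each of the 6 pairs of groups, from 19.6 to 2.59 CPM in liver at 5 months and from 7.91 to 5.98 CPM in muscle at 20 months. Transcripts of Gt(ROSA)26Sor were also lower in KO in each pair (6.39 to 1.99 CPM in liver at 5 months). Each tissue's own markers fitted the labels, with summed adipocyte markers at 15740 CPM or more in adipose tissue, hepatocyte markers at 116300 CPM or more in liver and muscle markers at 153200 CPM or more in muscle. Some libraries stood apart from their group. In 12 libraries, all at 5 months and 4 in each tissue (2 KO and 2 WT), Xist was at 143 to 432 CPM and genes of the Y chromosome at 0, while the other 52 libraries had at most 0.333 CPM of Xist. The 4 of each tissue carried the same numbers in their codes, as in W5F5041, W5L5041 and W5S5041, so the 12 may come from fewer mice. In 4 adipose libraries of 5 months (K5F4284, K5F5218, K5F5248 and W5F5299), markers of the epididymis and gonad summed to over 100 CPM and to as much as 7303 CPM. W18S42, a WT muscle library of 20 months, held 2989 CPM of hepatocyte markers, against 0 to 7.24 CPM in the rest of its group. It also held the highest Cd8a of that group (0.182 CPM). K18F27, a KO adipose library of 20 months, held 794.8 CPM of hepatocyte markers. Libraries are named by their codes in the labels, with K for KO or W for WT and F, L or S for the tissue. The labels call the replicates separate mice or samples only by their codes, so p-values measure the spread between these libraries.

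**Figure D1:**
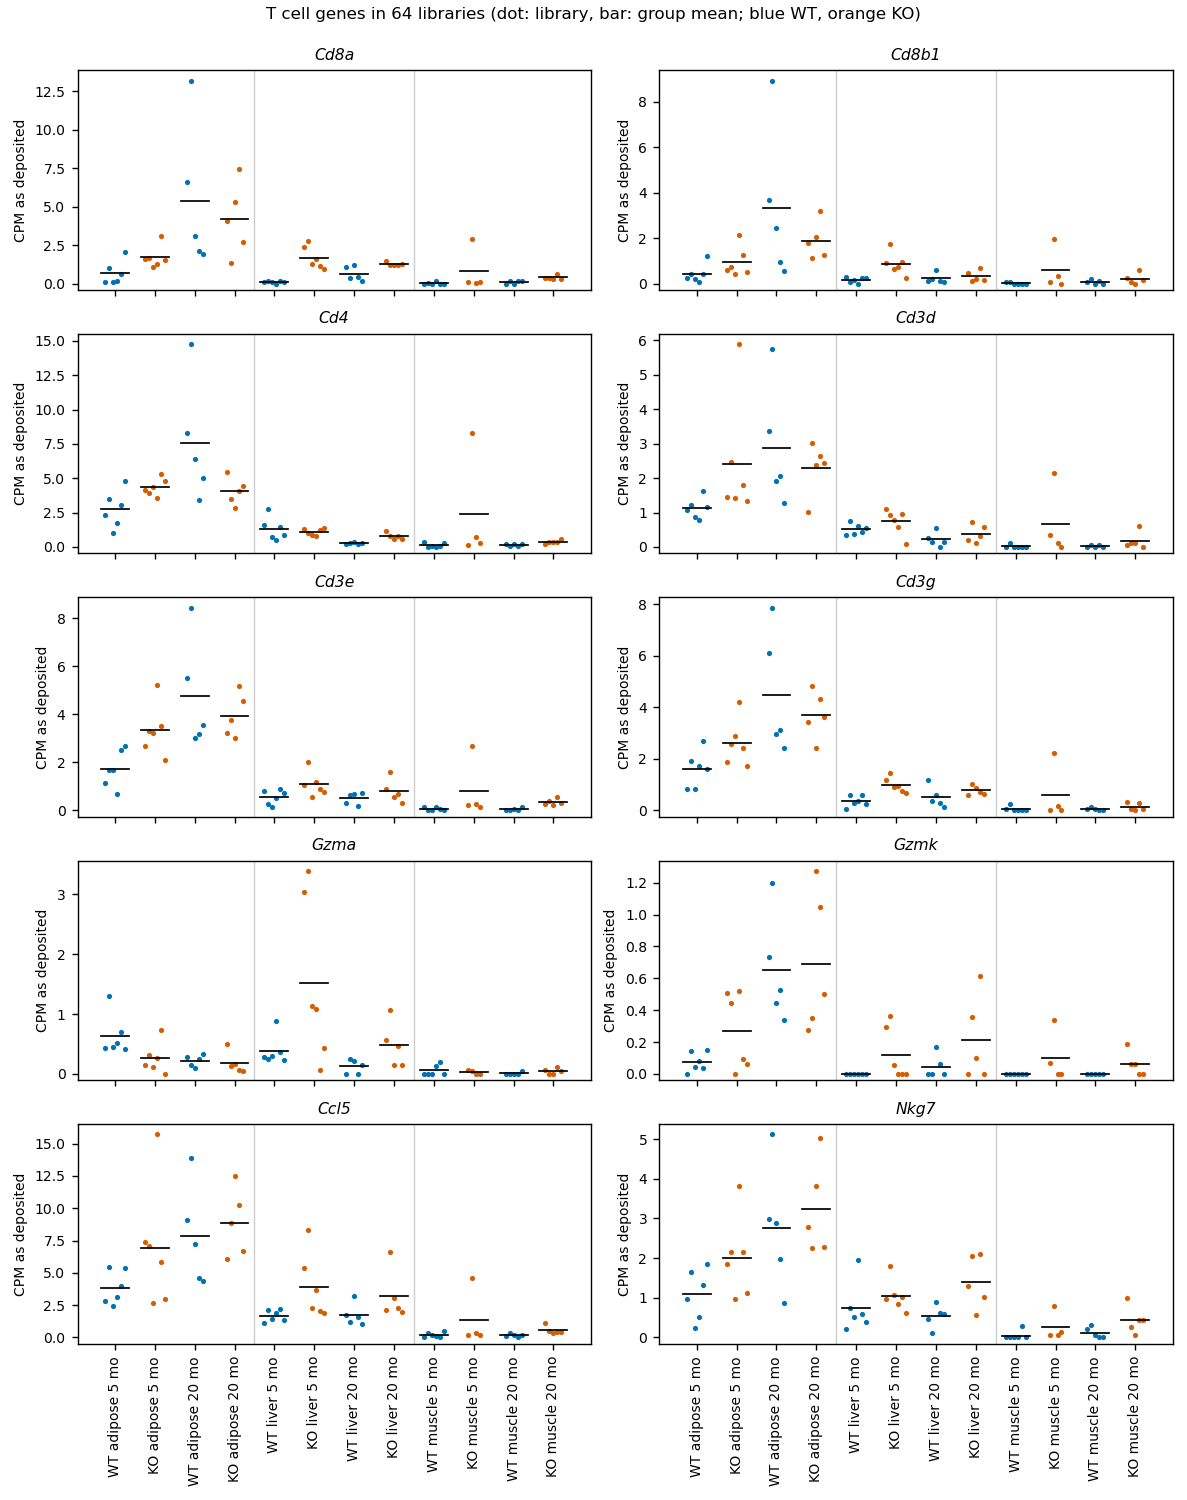
Deposited CPM (linear axis) of the 10 T cell genes in all 64 libraries, in 1 panel per gene with the 12 groups along the horizontal axis; each dot is a library and each bar a group mean. Adipose tissue held the highest values of 9 genes, Gzma was highest in KO liver at 5 months with 3.39 CPM, and K5S4285 stood above the other 3 KO muscle libraries of 5 months, with 2.92 CPM of Cd8a.

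In liver at 5 months, the comparison through which Cd8a was chosen, KO libraries held more Cd8a transcripts than WT libraries did. WT libraries had 0 to 0.167 CPM of Cd8a with a median of 0.0762, which was 0 to 2 reads each and 7 reads in 114.8 M over the group. KO libraries had 0.955 to 2.74 CPM with a median of 1.44, which was 11 to 38 reads each and 149 reads in 126.1 M. All 6 KO libraries were above all 6 WT libraries. The difference was 1.26 on the log2(CPM + 1) scale with a standard error of 0.17, and adding 1 CPM before the logarithm shrinks the difference of so low a gene. Among all 12924 genes of liver that passed the filter on low values, 0.139% had all KO libraries above all WT libraries in this comparison. Since the rule used this contrast, nothing is read from that share. Without the 4 libraries with Xist the difference was 1.28.

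The partner chain Cd8b1 was also higher in KO liver at 5 months, by less. It ran from 0 to 0.289 CPM in WT (13 reads) and from 0.260 to 1.73 CPM in KO (77 reads), with medians of 0.184 and 0.815. The lowest KO library overlapped the WT range. Cd3g was at 0.0722 to 0.591 CPM in WT and at 0.694 to 1.44 CPM in KO, and all 6 KO libraries were above all WT libraries. Cd3e had medians of 0.622 CPM in WT and 0.965 CPM in KO and Cd3d medians of 0.500 and 0.865 CPM, and for both the ranges overlapped. On the log2 scale the KO differences were 0.65 for Cd8b1, 0.56 for Cd3g, 0.41 for Cd3e and 0.18 for Cd3d. Cd4 did not share the direction, with medians of 1.18 CPM in WT and 1.12 CPM in KO and a difference of -0.08.

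Gzma and Ccl5 were uneven within KO liver. Gzma, the granzyme A gene, reached 3.05 and 3.39 CPM in K5L4284 and K5L4285 and 1.08 to 1.13 CPM in K5L5116 and K5L5118, but stood at 0.0684 and 0.434 CPM in the other 2 KO libraries, within or below the WT range of 0.238 to 0.882 CPM. Ccl5 ran from 1.91 to 8.30 CPM in KO and from 1.08 to 2.21 CPM in WT. Gzmk, the granzyme K gene, had no read in any of the 6 WT libraries, where 3 reads of 114.8 M would be the limit that a count of 0 allows, and it had 10 reads over the KO group. Nkg7 had medians of 0.551 CPM in WT and 0.996 CPM in KO with overlapping ranges. The differences were 0.76 for Ccl5, 0.70 for Gzma, 0.29 for Nkg7 and 0.15 for Gzmk. In all, 9 of the 10 genes had a positive difference, as did 52.4% of all genes of liver, and the median of the 10 was 0.49 beside 0.01 over all genes.

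**Figure D2:**
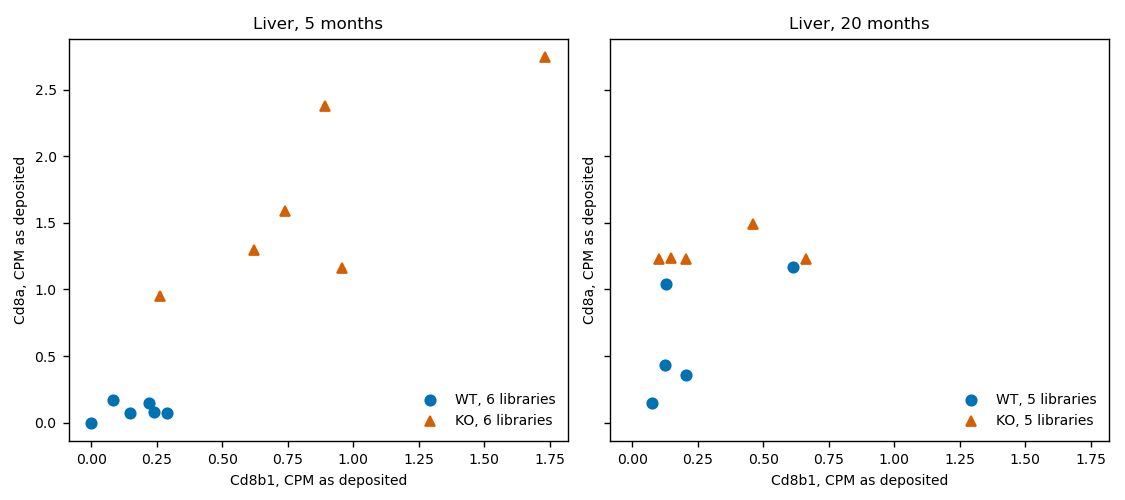
Deposited CPM of Cd8a (vertical axis) against Cd8b1 (horizontal axis) in each liver library at 5 months (left, 6 KO and 6 WT) and 20 months (right, 5 KO and 5 WT); triangles are KO and circles WT. At 5 months every KO library lies above 0.95 CPM of Cd8a and every WT library under 0.17 CPM. At 20 months the 5 KO libraries lie between 1.23 and 1.49 CPM of Cd8a, above all WT libraries in this unit.

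In liver at 20 months, which the choice of Cd8a did not use, Cd8a did not pass the test across all genes. In deposited CPM it was again above the WT range in every KO library. In recovered reads per 1 M reads the groups overlapped, with 0.119 to 0.990 in WT and 0.946 to 1.18 in KO. The WT libraries had 0.148, 0.357, 0.431, 1.04 and 1.17 CPM of Cd8a, and the KO libraries had 1.23 CPM in each of K18L07, K18L08 and K18L09, 1.24 CPM in K18L10 and 1.49 CPM in K18L06. The WT libraries were spread widely and the KO libraries were close together, with group means of 0.630 ± 0.450 CPM (SD, n = 5) and 1.28 ± 0.116 CPM (SD, n = 5). The KO values rest on 17 to 29 reads each, so their closeness is not read as a trait of the group. The difference was 0.53 with a standard error of 0.18, an unadjusted p of 0.00864 and an adjusted p of 0.75 (limma with Benjamini-Hochberg adjustment over 12924 genes). Cd4 was at 0.195, 0.246, 0.255, 0.296 and 0.391 CPM in WT and at 0.563, 0.583, 0.767, 0.818 and 1.13 CPM in KO, with no overlap in deposited CPM either. Its difference was 0.47 (standard error 0.19, adjusted p of 0.804 by limma). A gene with all 5 KO libraries above all 5 WT libraries was not rare, since 1.45% of all genes of liver had this pattern.

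The other genes of KO liver at 20 months had positive differences as well. Nkg7 was at 0.102 to 0.893 CPM in WT and at 0.563 to 2.10 CPM in KO, with a difference of 0.62 (standard error 0.23, adjusted p of 0.75 by limma). Ccl5 and Gzma had differences of 0.55 and 0.37, with adjusted p of 0.878 and 0.902. Of the 5 genes that passed the filter on low values, 0 passed the test at an adjusted p under 0.05, in a comparison in which 0.0232% of all genes did. Cd8a and Nkg7 passed the filter mainly through KO libraries, and Gzma only through KO libraries. Fitted without a filter, 0 of the 10 passed and 3 had an unadjusted p under 0.05, where 5.77% of all genes had one. edgeR and DESeq2 on the recovered reads called 0 of these 5 as well. The 5 genes below the filter (Cd8b1, Cd3d, Cd3e, Cd3g and Gzmk) had differences of 0.10 to 0.26. All 10 differences were positive, with a median of 0.31 beside 0.01 over all genes, where 51.9% were positive.

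The 2 CD8 chains were set against each other through the log2 ratio of Cd8a to Cd8b1, each as CPM + 1. Adding 1 CPM pulls this ratio to 0 where both genes are low, so in liver and muscle it follows the level of Cd8a as well as the balance of the chains and is not read as a share. In liver at 5 months it was 0.52 ± 0.23 (SD, n = 6) in KO and -0.09 ± 0.13 (SD, n = 6) in WT, described with no test because Cd8a chose the contrast. In liver at 20 months it was 0.81 ± 0.24 in KO and 0.38 ± 0.30 in WT (SD, n = 5 each), and the ranges overlapped. The reads behind it were 118 of Cd8a and 30 of Cd8b1 in KO, and 53 and 20 in WT. That difference of 0.43 had an exact two-sided permutation p of 0.0476, or 0.238 after Benjamini-Hochberg adjustment over the 5 tissue and age pairs tested. In adipose tissue the difference was 0.34 at 5 months (exact permutation p of 0.164, adjusted 0.274) and 0.14 at 20 months (exact permutation p of 0.476, adjusted 0.595). In muscle it was 0.03 at 5 months (exact permutation p of 0.733) and 0.18 at 20 months (exact permutation p of 0.103, adjusted 0.258). None of the 5 held after adjustment. At 5 months in adipose tissue K5F5118, the KO library with more Cd8b1 (2.12 CPM) than Cd8a (1.30 CPM), went against the others, and without it the difference was 0.53, a value given with no test because the library was singled out by this ratio.

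Genes beside Cd8a were examined because the KO and WT strains differ and the engineered Gt(ROSA)26Sor locus is on the same chromosome. The 10 nearest genes that passed the filter in liver start between 529 kb on the lower side (Eif2ak3) and 216 kb on the higher side (Kdm3a) of the Cd8a start. Their KO differences in liver ran from -0.08 (Thnsl2) to 0.26 (Eif2ak3 and Fabp1) at 5 months, where Cd8a was at 1.26 and Cd8b1 at 0.65. At 20 months they ran from -0.26 (Kdm3a) to 0.14 (Eif2ak3). Rmnd5a, the nearest of them at 15.2 kb from the Cd8a start, had differences of 0.04 and -0.05. None of them passed the test in a comparison of KO with WT in which it was tested, and Fabp1 in muscle and Gm38830 in adipose tissue were below the filter and not tested. The part of strain background in the difference of Cd8a was not tested, and strain and genotype cannot be told apart in this design.

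**Figure D3:**
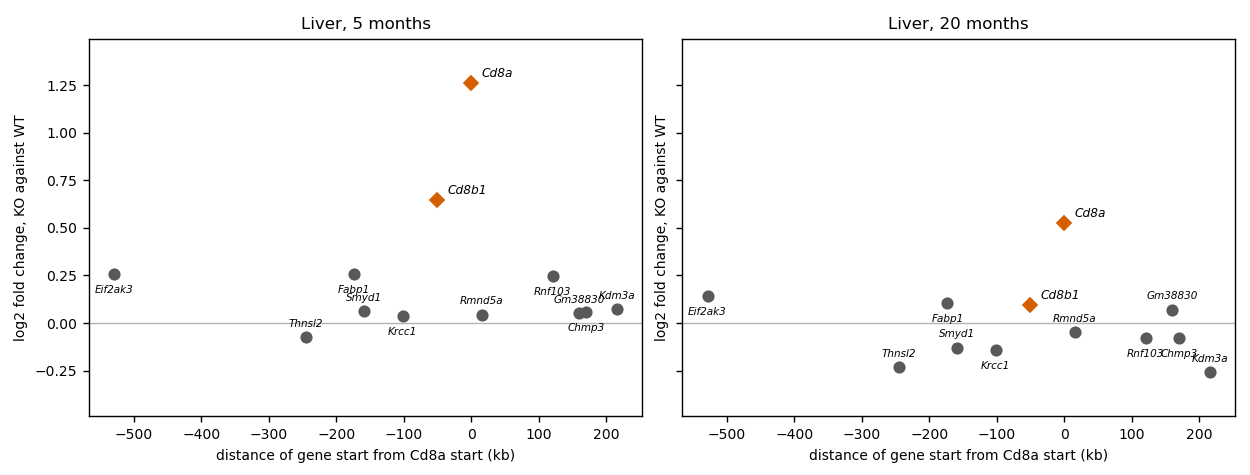
KO minus WT difference on the log2(CPM + 1) scale (vertical axis) in liver at 5 months (left) and 20 months (right) against the distance of each gene's start from the Cd8a start in kb (horizontal axis); circles are the 10 nearest genes past the filter and diamonds are Cd8a and Cd8b1. The 10 neighbours lie between -0.08 and 0.26 at 5 months, and Cd8a lies at 1.26.

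With age, Cd4 fell in WT liver and was the 1 T cell gene called in this tissue. In WT liver Cd4 fell by 0.80 on the log2 scale (standard error 0.18, adjusted p of 0.00941 by limma). It went from 0.529 to 2.75 CPM (median 1.18) at 5 months to 0.195 to 0.391 CPM at 20 months. In deposited CPM all 5 old libraries were below all 6 young ones. In recovered reads per 1 M reads the ages overlapped slightly, with 0.323 to 1.81 in the young and 0.142 to 0.330 in the old. The call was made on the CPM values. It was the only 1 of the 4 tested genes that passed, in a comparison where 4.36% of all genes fell, 2.83% rose and 2.79% had all old libraries below all young ones. edgeR and DESeq2 called the same 1 of 4, and the call was lost (adjusted p of 0.0617) when only the 2 WT groups were fitted. Cd4 passed the filter mainly through young libraries of both genotypes, the age at which it was high. Fitted without a filter it was still called, as 1 of 9 genes passed where 689 of all 22097 did. Some markers of macrophages, which can also carry CD4, fell as well: 6 of 17 measured macrophage and monocyte genes fell and 1 rose, with a median of -0.64. Their summed level was 384 to 981 CPM at 5 months and 344 to 526.2 CPM at 20 months. C1qa, a complement gene of macrophages, fell from a mean of 70.9 to 27.4 CPM, and Clec4f, a marker of Kupffer cells, the liver's macrophages, from 130.0 to 56.5 CPM. Genes listed for other cells changed as well. Of the T cell list, Zap70 fell from a mean of 20.52 to 9.368 CPM and Il2rb from 3.088 to 1.185 CPM, while Themis rose from 0.2603 to 2.975 CPM. Tyrobp, listed with natural killer cell genes, fell from 12.75 to 6.454 CPM. The hepatocyte genes Tat, Cps1, Ahsg and Fgb fell too. The part of any of these cells in the change of Cd4 was not tested. Ccl5, Gzma and Nkg7 had differences of 0.02, -0.29 and -0.14 in WT liver (adjusted p of 0.973, 0.534 and 0.721). Cd8a in WT liver went from 7 reads at 5 months to 53 reads at 20 months, a difference of 0.54 that is given with no test.

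In KO liver none of the 4 tested genes passed with age, where 2.99% of all genes did. Gzma had a difference of -0.62 (standard error 0.28, adjusted p of 0.222 by limma), and edgeR and DESeq2 called 0. It passed the filter only through KO libraries, most of them young, so nothing is read from its test. Without a filter 0 of 9 passed, and 3 had an unadjusted p under 0.05 where 14.4% of all genes did. Cd4 was lower by a smaller amount than in WT, at -0.25 (adjusted p of 0.451), and the difference between the genotypes' ageing was not tested in liver. Cd8a had a difference of -0.20 with no test. Of the genes below the filter, Cd8b1 had the furthest difference, -0.48 (adjusted p of 0.123 when all genes were fitted without a filter), from a mean of 0.867 to 0.316 CPM.

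Omental adipose tissue of WT mice gained T cell transcripts with age. Cd8a was at 0.120 to 2.08 CPM (median 0.389) in the 6 young WT libraries and at 1.89, 2.11, 3.08, 6.58 and 13.2 CPM in the 5 old ones. The highest young library, W5F5299, was above the lowest old one only, and W18F22 stood highest among the old. Cd8a rose by 1.74 (standard error 0.38, adjusted p of 0.00757 by limma), Cd8b1 by 1.30 (adjusted p of 0.0247) and Cd4 by 1.14 (adjusted p of 0.0122). Cd8b1 went from 0.0795 to 1.21 CPM to 0.530, 0.944, 2.43, 3.67 and 8.92 CPM, and Cd4 from 0.989 to 4.80 CPM to 3.38, 5.00, 6.40, 8.32 and 14.8 CPM. Both co-receptors thus rose together, with overlap between the ages.

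Among the CD3 chains, Cd3e and Cd3g rose in ageing WT adipose tissue and Cd3d did not pass. Cd3e was at 0.676 to 2.68 CPM in the young and at 3.03, 3.19, 3.56, 5.50 and 8.45 CPM in the old libraries, and all 5 old libraries were above all 6 young ones. It rose by 1.04 (standard error 0.24, adjusted p of 0.00959 by limma), and Cd3g by 1.02 (adjusted p of 0.0134). Cd3d had a difference of 0.77 (adjusted p of 0.075). In this comparison 7.41% of all 14286 genes rose, and 7.06% had all old libraries above all young ones. Of the 8 genes that passed the filter, 5 rose and 0 fell, and edgeR called 6 and DESeq2 7 of the 8. Fitted without a filter, 6 of the 10 rose where 2.94% of all genes did, and all 10 had an unadjusted p under 0.05 where 19.1% had one.

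The cytotoxic genes did not move as 1 group with age in WT adipose tissue. Nkg7 and Ccl5 had differences of 0.80 each with adjusted p of 0.0699 and 0.111. Gzmk and Gzma were below the filter and went in opposite directions. Gzmk had 12 reads in all young WT libraries (0 to 0.151 CPM) and stood at 0.341, 0.444, 0.527, 0.734 and 1.20 CPM in the old ones, and Gzma was at 0.416 to 1.30 CPM in the young and at 0.105, 0.146, 0.250, 0.275 and 0.341 CPM in the old. For both, no old library was within the young range, a pattern that 4.65% of all genes had in the lower direction. Fitted without a filter, Gzmk had a difference of 0.60 (adjusted p of 0.0366 by limma) and Gzma one of -0.40 (adjusted p of 0.0991). Over all 10 genes the median difference was 0.91, beside 0.01 over all genes tested.

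Libraries that stood apart mattered for the WT ageing result. All 4 WT and KO adipose libraries with Xist were young, and W5F5041 and W5F5042 had 0.124 and 0.159 CPM of Cd8a, while W5F5005 without Xist had 0.120 CPM. Without the libraries with Xist, only Cd3e still passed (adjusted p of 0.0441 by limma), and Cd8a had a difference of 1.52 (adjusted p of 0.0553), Cd3g of 0.93 (adjusted p of 0.052), Cd4 of 0.85 (adjusted p of 0.0826) and Cd8b1 of 1.16 (adjusted p of 0.095). With the presence of Xist as a covariate, 5 genes passed. W18F22 held the highest level of 9 of the 10 genes in its group, and without it the mean of Cd8a was 3.42 ± 2.17 CPM (SD, n = 4) in place of 5.37 ± 4.76 CPM (SD, n = 5). Leaving out any 1 library left 4 to 6 genes called. The call of Cd8b1 was the least secure: it held in 6 of the 11 such fits and was lost without W18F21, W18F22, W18F23, W5F5041 or W5F5042 (adjusted p of 0.0532 to 0.0763 by limma). Without the 4 libraries with epididymis markers over 100 CPM, a choice made after the data were seen, 6 passed.

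**Figure D4:**
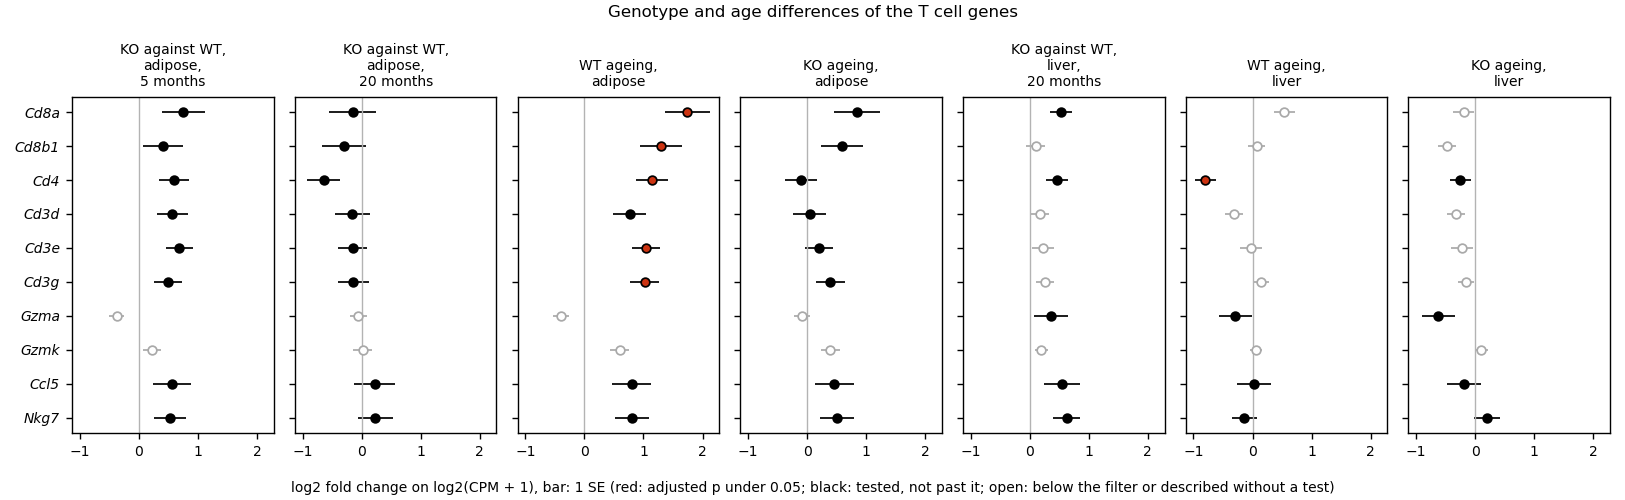
Differences on the log2(CPM + 1) scale (horizontal axis) of each of the 10 genes with a bar of 1 SE, in 7 panels for the comparisons in adipose tissue and liver other than KO against WT liver at 5 months; filled red points passed at an adjusted p under 0.05, black points were tested and did not, and open points were below the filter or given with no test. The 5 red points of ageing WT adipose tissue lie between 1.02 and 1.74, and Cd4 in ageing WT liver lies at -0.80.

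Other T cell genes rose with the members in ageing WT adipose tissue, and so did B cell genes. Of 40 listed genes of T cell receptor signalling and T cell identity, 29 passed the filter, 18 of these rose and 0 fell, and all 29 differences were positive with a median of 1.02 (edgeR called 17 and DESeq2 21). Il7r, the receptor for interleukin-7, rose from a mean of 7.56 to 27.6 CPM (difference 1.70, adjusted p of 0.006 by limma). Prkcq, a kinase downstream of the T cell receptor, rose from 1.40 to 6.69 CPM, and Bcl11b, a transcription factor that keeps T cell identity, from 0.810 to 4.44 CPM. Grap2, an adaptor of T cell receptor signalling, rose from 2.01 to 8.73 CPM, and Lck, the kinase bound to CD4 and CD8, from 2.18 to 7.30 CPM. In the list of cytotoxic and natural killer cell genes 4 of 11 rose, and these were Cxcr3 and Cxcr6, chemokine receptors of effector T cells, and Eomes and Tbx21, transcription factors of effector lymphocytes. In the list headed regulatory and helper T cell 1 of 10 genes rose (Runx3, which is not a gene of these cells alone). Of the receptors and chemokines around CCL5 0 of 13 did, with 0 at an unadjusted p under 0.05 and 0 by edgeR and DESeq2.

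Markers of other cells that adipose tissue could hold were followed beside the T cell genes. Of 14 measured B and plasma cell genes 10 rose, with a median of 1.84, and Ms4a1, the CD20 gene of B cells, rose from a mean of 1.11 to 13.9 CPM (difference 2.59, adjusted p of 0.000307 by limma). Their summed level was 33.7 to 135 CPM in young and 109 to 535 CPM in old WT libraries, and the highest was W18F22, as for the T cell list (123 to 368 CPM in old WT libraries). Of 17 macrophage and monocyte genes 0 rose (limma; 1 at an unadjusted p under 0.05, 0 by edgeR and 1 by DESeq2). Of 6 genes of lymphoid stroma and follicles 2 rose, Cxcr5 and Ltb, which B and T cells also carry. Of 14 genes of MHC class I molecules, their peptide supply and their control 0 rose (limma; 2 at an unadjusted p under 0.05, 0 by edgeR and DESeq2) and of 10 MHC class II genes 1 did (H2-Ob, which B cells carry). Summed adipocyte markers ran from 29560 to 51390 CPM in young and from 20010 to 26810 CPM in old WT libraries. The adipocyte genes Cfd and Retn fell, from means of 8780 to 1319 CPM and of 1040 to 196.5 CPM. The part of the share of adipocytes, or of lymph node or other lymphoid tissue within the omental samples, was not tested.

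**Figure D5:**
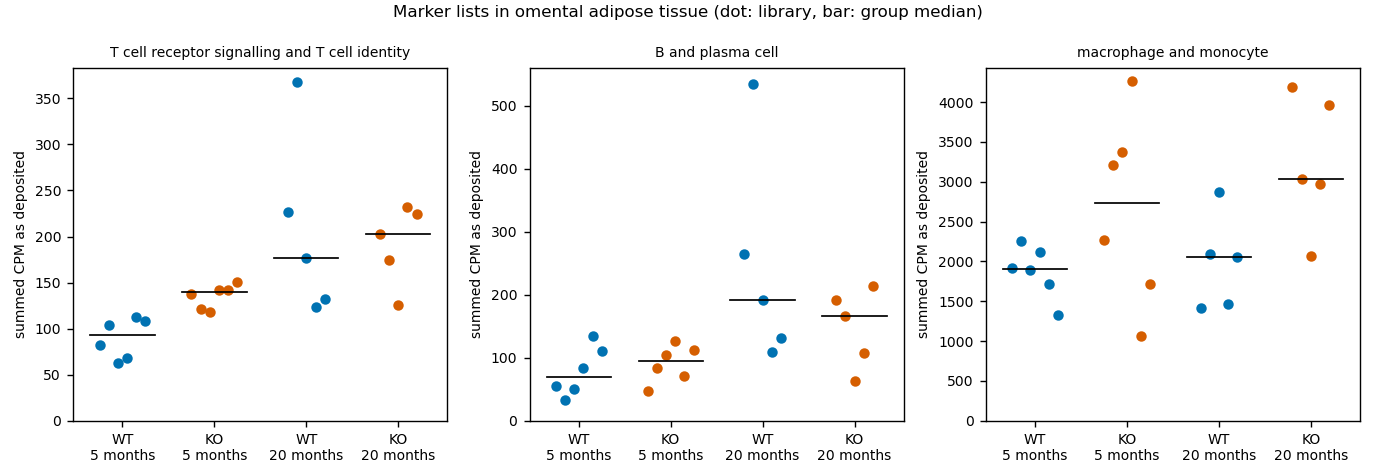
Summed deposited CPM (linear axes from 0, different in each panel) of 3 marker lists in adipose tissue, by genotype and age; each dot is a library and each bar a group median. Old WT libraries reach 368 CPM of T cell genes and 535 CPM of B cell genes in W18F22, and KO libraries of 5 months (118 to 151 CPM) lie above WT libraries of 5 months (62.8 to 112 CPM) for the T cell list.

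In KO adipose tissue none of the 8 tested genes passed with age, in a comparison where 14.2% of all genes did. Cd8a was at 1.05 to 3.06 CPM (median 1.55) in young KO libraries and at 1.35, 2.71, 4.04, 5.29 and 7.46 CPM in old ones, a difference of 0.84 (standard error 0.38, unadjusted p of 0.0388, adjusted p of 0.132 by limma). It was the only 1 of the 8 with an unadjusted p under 0.05, where 32.2% of all genes had one, and edgeR and DESeq2 called 0. Cd4 was at 3.59 to 5.32 CPM in the young and 2.81 to 5.49 CPM in the old, with a difference of -0.10. Cd3d and Cd3e had differences of 0.04 and 0.20. Of the T cell list 1 of 29 genes rose (Il7r, by 1.83) and of the B cell list 6 of 14, with medians of 0.24 and 0.99. A gene that passed in WT and not in KO is not thereby shown to differ between them, and the test of that difference follows.

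At 5 months the KO adipose libraries tended to hold more T cell transcripts than the WT ones, and none of the differences passed the test. Cd3e was at 2.08 to 5.24 CPM (median 3.27) in KO and at 0.676 to 2.68 CPM (median 1.69) in WT, with 5 of 6 KO libraries above all WT libraries. Its difference was 0.69 (standard error 0.23, unadjusted p of 0.00636, adjusted p of 0.284 by limma). Cd8a had medians of 1.55 CPM in KO and 0.389 CPM in WT and a difference of 0.75 (standard error 0.37, adjusted p of 0.424). The differences of Cd4, Cd3d, Ccl5, Nkg7, Cd3g and Cd8b1 were 0.60, 0.57, 0.56, 0.53, 0.49 and 0.41. Over all 10 genes 9 differences were positive, as were 43.6% of those of genes past the filter, and 0 of the 8 tested passed where 0.105% of all genes did (edgeR 0, DESeq2 0). Without a filter 3 of the 10 had an unadjusted p under 0.05, where 13.9% of all genes had one. Gzma, below the filter, went the other way, with medians of 0.203 CPM in KO and 0.485 CPM in WT and a difference of -0.38. In this tissue and age 26 of 29 genes of the T cell list had a positive difference (median 0.48; 0 called by limma and edgeR, 5 by DESeq2, 15 at an unadjusted p under 0.05), against 4 of 14 B cell genes and 16 of 17 macrophage genes. All 10 adipocyte genes had a negative difference (median -0.70; 0 called). The summed adipocyte level ran from 15740 to 50250 CPM in KO and from 29560 to 51390 CPM in WT. The 3 KO libraries with epididymis markers over 100 CPM had the lowest sums, 15740, 16740 and 17370 CPM, and 1 WT library also carried these markers. Without the libraries over 100 CPM, 3 of the 8 tested genes had an unadjusted p under 0.05 in place of 4, and without those over 10 CPM 1 did. Of all 14286 genes 1888 and 3126 had one in these 2 fits, and 1692 in the main fit. Whether the makeup of the samples took part in the difference was not tested. Without the libraries with Xist, 0 of the 8 had an unadjusted p under 0.05, where 3358 of all 14286 genes had one. K5F5118 had the highest Cd3d, Cd3e, Cd3g, Cd8b1, Ccl5 and Nkg7 of its group, with 15.7 CPM of Ccl5 against at most 7.40 CPM in the other 5.

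At 20 months the T cell genes of adipose tissue differed between KO and WT in either direction, and none passed the test. Cd4 was at 2.81, 3.46, 4.09, 4.43 and 5.49 CPM in KO and at 3.38 to 14.8 CPM in WT, with a difference of -0.65 (standard error 0.28, unadjusted p of 0.0335, adjusted p of 1 by limma). The other 7 tested genes had differences of -0.29 (Cd8b1) to 0.23 (Nkg7), and the median over all 10 was -0.14. One library set the direction: 2 of the 8 differences were positive, and 7 of 8 were without W18F22, the WT library with the highest level of most of these genes. Of the 8 genes 0 passed where 0% of all genes did, 1 had an unadjusted p under 0.05 where 2.25% of all genes had one, and edgeR and DESeq2 called 0 of the 8. B cell genes were lower in KO in 14 of 14 cases, with a median of -0.97, though 0 passed (limma; 9 at an unadjusted p under 0.05, 0 by edgeR and DESeq2). The test of the change in the KO effect from 5 to 20 months, which is the same as the difference in ageing between KO and WT, found 0 of 8 genes past the threshold (0% of all genes, edgeR 0, DESeq2 0). An unadjusted p under 0.05 was found for 2 of the 8 and for 407 of all 14286 genes. The 2 were Cd4, at -1.24 (standard error 0.39, unadjusted p of 0.00399, adjusted p of 0.998 by limma), and Cd3e, at -0.84 (unadjusted p of 0.0209).

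Skeletal muscle held few T cell transcripts, and none of the 10 genes passed the filter there. WT libraries had 0 to 0.137 CPM of Cd8a at 5 months (3 reads in all) and 0, 0, 0.150, 0.152 and 0.182 CPM at 20 months. KO libraries of 5 months had 0.0634, 0.0664, 0.0711 and 2.92 CPM. The last was K5S4285, which also held 8.31 CPM of Cd4 against at most 0.761 CPM in the other 3 and 4.60 CPM of Ccl5 against at most 0.317 CPM. Without it the mean of Cd8a in KO muscle was 0.067 CPM in place of 0.78 ± 1.43 CPM (SD, n = 4). Its B cell markers summed to 66.9 CPM against 2.06 to 4.25 CPM in the other 3, and its macrophage markers to 403 CPM against 195 to 263 CPM. The liver library that carries the same number held 2.74 CPM of Cd8a, the highest of its group, and the adipose library 1.66 CPM, though the labels do not say whether a shared number is 1 mouse.

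At 20 months all 5 KO muscle libraries were above all 5 WT ones in Cd8a (0.299, 0.322, 0.373, 0.381 and 0.600 CPM) and in Cd3e (0.239 to 0.546 CPM in KO and 0 to 0.152 CPM in WT). Among genes that passed the filter in muscle, 1.28% had this pattern. KO libraries had 34 reads of Cd8a in all and WT libraries 9. Fitted without a filter, 0 of the 10 genes passed in muscle at either age, with 5 at an unadjusted p under 0.05 at 5 months and 1 (Nkg7, p of 0.0381) at 20 months. The KO means of 5 months were raised by K5S4285 (Cd4 at 2.37 CPM with it and 0.3895 CPM without). No fit without a filter left it out, so the count of 5 is not read as a difference of the groups. In the same fits 0.00416% and 0.0125% of all genes were called at the 2 ages and 4.58% and 9.51% had an unadjusted p under 0.05, and edgeR and DESeq2 were run on the genes that passed the filter only. All 10 differences were positive at 20 months, as were 45.6% of those of genes past the filter, with a median of 0.21. Of the 14 genes of MHC class I molecules, their peptide supply and their control, 13 had a positive difference at 20 months in muscle (median 0.53; 0 called by limma, edgeR or DESeq2, 9 at an unadjusted p under 0.05). In liver at 20 months 13 of these 14 were also positive, with a median of 0.41 and 0 called by any of the 3 tools. With age, the 10 genes had median differences of 0.00 in WT muscle and -0.23 in KO muscle, and 0 passed without a filter in either, where 7.1% and 1.92% of all genes in those fits did. The change of the KO effect with age in muscle, and the difference of the KO effect at 5 months between adipose tissue and muscle, also had 0 of the 10 genes past the threshold without a filter, and 0% of all genes.

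Over the 12 groups, Cd8a was highest in adipose tissue at 20 months and lowest in WT muscle at 5 months. In recovered reads per 1 M reads, group means of Cd8a were 1.08 (WT, 5 months), 2.78 (KO, 5 months), 8.55 (WT, 20 months) and 6.44 (KO, 20 months) in adipose tissue. In liver they were 0.0614, 1.17, 0.492 and 1.03 in the same order, and in muscle 0.0262, 0.672, 0.0843 and 0.355. By deposited CPM the order ran from WT adipose tissue at 20 months to WT muscle at 5 months, with KO adipose tissue and KO liver of 5 months next to each other at 1.70 and 1.69 CPM. Of the 11 steps between neighbours in that order 10 overlapped, and the exception was WT muscle at 20 months, which lay below the next group. For Cd3e 10 of 11 neighbours overlapped, and for each of the other 8 genes all 11 did. Over tissues, Cd4 had medians of 6.41, 0.635 and 0.191 reads per 1 M reads in adipose tissue, liver and muscle, and Ccl5 9.67, 1.47 and 0.218. Gzma had medians of 0.402 and 0.197 reads per 1 M reads in adipose tissue and liver, where the deposited medians were 0.268 and 0.290 CPM.

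Genes whose pattern was most like that of the T cell genes were looked up across libraries of a tissue, as a description with no test. Libraries share groups and depth, so values about the group means are given as well. In adipose tissue (n = 22 libraries) the mean of Cd3d, Cd3e and Cd3g was followed most closely by Gimap3 (Pearson's r of 0.94), Septin1 (0.93), Lck (0.93), Gimap7 (0.92) and Lat (0.89), and about the group means these were 0.83 to 0.92. Among the members, r with this CD3 mean was 0.86 for Cd8b1, 0.82 for Nkg7, 0.81 for Ccl5, 0.76 for Cd8a, 0.73 for Gzmk, 0.71 for Cd4 and -0.42 for Gzma. About the group means these were 0.72 to 0.77 for Cd8b1, Ccl5 and Nkg7, 0.51 to 0.52 for Cd8a, Cd4 and Gzmk, and 0.05 for Gzma. In liver (n = 22 libraries) the CD3 mean was followed by Ccl5 (0.87), H2-Ab1 (0.80), Tgtp1 (0.80), H2-DMa (0.80) and Cd74 (0.80), which fell to 0.61 to 0.77 without K5L4284 and K5L4285 and were 0.72 to 0.84 about the group means. Cd8a in liver was followed by Pvt1 (0.86), Tgm2 (0.79), H2-Q4 (0.77), Tap1 (0.75) and Ccl5 (0.75). The liver libraries include the young ones whose KO and WT levels of Cd8a led to its choice. A gene that differs between KO and WT liver can follow Cd8a through that difference, so nothing is read from the order of these genes. Pvt1 is the neighbour of Myc and had a higher mean in KO in each of the 6 pairs of groups, and its r with Cd8a about the group means was 0.54, where the other 4 had 0.47 to 0.72. In liver Cd4 and Cd8a had an r of -0.00, and Cd8b1 and Cd8a one of 0.73 (0.13 and 0.65 about the group means). In muscle (n = 20 libraries) the likeness rested on K5S4285 and K18S63, since r of Ccl21a with the CD3 mean went from 0.87 to 0.06 without them.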

How the data were processed

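RNA was isolated with column kits and poly-A selected on beads for directional libraries sequenced on Illumina instruments, per the labels' protocols. The authors deposited 1 table of a read signal for each gene ID, made with CLC software and headed CPM per the file headers. GRCm38.p6 and mm10 are the builds in the submitters' processing notes, and the aligner, counting rules and use of strand are not given in the sources used here. Every deposited value was a whole multiple of the value of 1 read (100% within 0.02), so reads were recovered. IDs were named from a RefSeq table of GRCm38.p6 (35336 of 36332 matched). In each tissue, genes that exceeded 1 CPM in a number of libraries no smaller than the smallest group's were tested on log2(CPM + 1) with limma 3.58.1 (R 4.3.3): a mean per group over the 4 groups, a variance trend, and Benjamini-Hochberg adjustment over all genes tested. The text says rose or fell, or passed, at an adjusted p under 0.05. Alternatives used edgeR 4.0.16 and DESeq2 1.42.0 on recovered reads, a pseudocount of 0.1, no filter, TMM scaling, only the groups compared, the Xist libraries as a covariate or left out, adipose libraries with epididymis markers left out, and each library left out in turn. Ratios of 2 genes were compared with exact permutation tests. Scripts were tested on simulated data, and intervals and floors cover counting error only. The members and gene lists were chosen with earlier results of these data known. Genes named beyond the members are at most 4 called genes per list by size of change, the 10 nearest neighbours of Cd8a (5 on each side), the 5 most correlated genes of a tissue, and Myc, Pvt1 and Gt(ROSA)26Sor as a check of the labels. All 141 pairs of libraries within groups differed by more than counting error (chi-square of at least 14.5 per gene, where counting error alone gives 1), so none was counted as a copy of another. Shared library numbers at 5 months were not used to pair libraries in the main fits, though the libraries with Xist carried the same numbers in each tissue. The list of genes of leukocytes in general is not reported here.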

Additional observations from a re-analysis of the deposited data

Results flagged for a closer look

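Within the groups of 4 to 6 libraries, 117 sets of values (1 gene in 1 group) were examined for a highest or lowest library that stood far from the rest by Dixon's criterion, and 18 (15.4%) had one. Chance alone gives about 1 in 20 for normally distributed values. In sets of few reads, a single library with reads among libraries at 0 is always flagged, as for Gzma in W18S72. The share is therefore not compared with that rate. The most frequent library was K5S4285 of KO muscle at 5 months, the highest of its group in Cd8a (2.92 CPM), Cd3e (2.70 CPM), Cd3g (2.25 CPM), Ccl5 (4.60 CPM) and Nkg7 (0.786 CPM). In adipose tissue, K5F5118 was highest in Cd3d (5.89 CPM), W5F5006 in Gzma (1.30 CPM) and K18F26 in Gzma (0.499 CPM), while K18F26 was lowest in Cd3d (1.02 CPM). In liver, K18L06 was highest in Cd8a (1.49 CPM) in a group whose other 4 libraries had 1.23 to 1.24 CPM, W18L03 in Cd8b1 (0.614 CPM) and W5L5042 in Gzma (0.882 CPM). In muscle, where most values are a few reads, W5S5007 was highest in Cd3d (0.123 CPM) and Cd3g (0.247 CPM), K18S63 in Cd3d (0.600 CPM), W18S72 in Gzma (0.0507 CPM), K18S48 in Ccl5 (1.12 CPM) and W5S5277 in Nkg7 (0.276 CPM).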

How the results depend on the processing

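The number of T cell genes that rose in ageing WT adipose tissue was 5, and it was 4 to 7 under the alternatives run, except that it was 1 (Cd3e) without the libraries with Xist. Cd4 in ageing WT liver was called under the alternatives run except for the fit of only the groups compared, where 0 of the 4 genes passed. The number of called genes was 0 in the other comparisons under each alternative that gave a value, which in muscle was only the fit without a filter, since no member passed it. The difference of Cd8a in KO liver at 5 months (1.26) was 4.08 by edgeR, 4.20 by DESeq2 and 3.21 with a pseudocount of 0.1, because a pseudocount of 1 shrinks a gene near 0. The Cd8a to Cd8b1 log2 ratio (KO minus WT) was less stable. In adipose tissue at 5 months (0.34) it was 0.48 without the libraries with Xist (exact permutation p of 0.0286), and 0.27 to 0.53 with 1 library left out. That p is unadjusted and the smallest that so few libraries allow. The libraries with Xist include K5F5118, which had been singled out by this ratio, so nothing is read from that p. In liver at 20 months (0.43) it was 0.82 with a pseudocount of 0.1 (exact permutation p of 0.111), and 0.36 to 0.55 with 1 library left out, with p above 0.05 in 7 of the 10 such fits. In muscle at 5 months (0.03) it was -0.10 with a pseudocount of 0.1 and -0.087 to 0.15 with 1 library left out, the lowest without K5S4285, and at 20 months (0.18) it was 0.14 to 0.23, the highest without K18S63. The cause of each was not tested.

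Over all genes of adipose tissue, 1059 rose and 480 fell in ageing WT mice by limma, 886 and 820 by edgeR and 1273 and 1423 by DESeq2, and in ageing KO mice 1497 and 536, 997 and 1265, and 1314 and 1983, so the split of directions differed between the tools, which change the model and the scaling at once. With TMM scaling alone, 983 rose and 567 fell in WT ageing, and 1104 rose and 654 fell in KO ageing. The WT ageing count of all genes (1539) was 2652 with only the groups compared, 744 without W18F22 and 739 without the libraries with Xist, and the KO count at 5 months (15) was 304 by DESeq2 and 531 without the libraries with Xist. Adipose and muscle libraries of 5 months share numbers, but their deviations correlated at only -0.116 to 0.299 over 8 pairs, and with the number as a replicate block 0 genes were called, as without it. Depth limits liver and muscle, where several genes had fewer reads in a whole group than Cd8b1 in WT liver at 20 months (20 reads).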
